A study of Homo sapiens with 9 samples.

Results

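The clustered histone genes are the genes whose symbols begin with HIST1H, HIST2H, HIST3H or HIST4H, and they were chosen by symbol alone from the table of normalised counts. They number 89 of the 57736 rows of that table. By the histone type named in their symbols they fall into 8 H1, 22 H2A, 26 H2B, 17 H3 and 16 H4 genes, and by cluster into 67 HIST1, 17 HIST2, 4 HIST3 and 1 HIST4 gene. On GRCh37, the build named hg19 in the submitters' processing notes, the 62 HIST1 genes with coordinates lie on chromosome 6 between 25723625 and 27861669. The HIST2 and HIST3 genes lie on chromosome 1, and HIST4H4 lies on chromosome 12 at 14920933-14924065. The annotation calls 68 of the 89 protein coding and 15 pseudogenes, and 6 had no coordinates in it.

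Clustered histone genes supply the bulk of the histones that package newly copied DNA, and their mRNAs accumulate in S phase and are destroyed when replication ends. H2A, H2B, H3 and H4 form the nucleosome core, whereas H1 binds the linker DNA between nucleosomes. Unlike other mRNAs, most of these transcripts lack introns and a poly(A) tail and end instead in a conserved hairpin that is bound by the stem-loop binding protein SLBP, so that they are largely lost from poly(A)-selected libraries and are counted in rRNA-depleted total RNA such as that used here.

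RNA was sequenced from SKMEL-147, an established human melanoma cell line, in 3 groups of 3 libraries. All cells carried the Cas9 nuclease and a lentiviral guide RNA with a GFP reporter. The control group received a scrambled guide (sgScr), and the other groups received sgPHF8-1 or sgPHF8-3, each directed at PHF8, a histone demethylase that removes methyl groups from lysines of histones H3 and H4. The cells were transduced populations rather than clones, so cells with different edits, or with none, are measured together, and the time between transduction and RNA extraction was not given in the sources used here. The libraries of a group carry the letters A, B and C and are described by the study as biological replicates.

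Library totals ranged from 17366120 to 19838142 counts, and the clustered histone genes took between 1.12% and 1.25% of them. Levels below are given as CPM, the reads of a gene scaled to a common library size after TMM normalisation. The tested melanocyte regulators MITF and SOX10 were present at 13.7 ± 0.951 and 149.5 ± 3.12 CPM in sgScr (SD, n = 3), whereas the pigment genes MLANA and TYR had 0 CPM in every library. The receptor gene AXL was present at 1507 ± 10.9 CPM. In the sgPHF8-1 group, library B stood apart, with a larger spread of log2 deviations from its group mean over all tested genes (SD 0.175) than the other 8 libraries (0.134 to 0.151). The histone genes moved with it: 52 of the 54 histone genes that could be tested had their highest sgPHF8-1 level in library B, against 40.4% of all tested genes. In the sgPHF8-3 group 44 of the 54 were highest in library A, against 34.7% of all tested genes. In sgScr the corresponding numbers were 19, 21 and 14 for libraries A, B and C. The sums and the counts of calls over all members, by cluster, by list and, under sgPHF8-3, by type are therefore also given without those libraries. Other counts below rest on all 9 libraries unless stated.

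The sites of both PHF8 guides are shown because the groups differ in where the gene was targeted. Each guide had 1 exact match in PHF8 on GRCh37, and the capitals mark the adjacent PAM that Cas9 requires:
sgPHF8-1: gtcacactcgatcatgaagcGGG
sgPHF8-3: tcctcctgagcctaaacaagAGG
The sgPHF8-1 site lies on the plus strand at chrX:54069090-54069109, in coding sequence of 13 of the 15 annotated coding transcripts of PHF8, which is read from the minus strand. The sgPHF8-3 site lies on the minus strand at chrX:53966772-53966791, in coding sequence of 4 of the 15. The scrambled guide had 0 matches in the gene.

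PHF8 mRNA was lower under both guides. It was measured at 35.3, 32.7 and 34.3 CPM in sgScr A, B and C, at 30.5, 30.7 and 30.6 CPM in sgPHF8-1 and at 21.5, 20.9 and 23.5 CPM in sgPHF8-3. The 3 groups did not overlap. The log2 fold change was -0.16 ± 0.05 (SE) under sgPHF8-1 (edgeR quasi-likelihood test, Benjamini-Hochberg adjusted p = 0.0272) and -0.63 ± 0.06 under sgPHF8-3 (adjusted p = 6.36e-09). The level of an edited mRNA does not give the amount of protein. By Western blot, the study reported efficient PHF8 knockout with both guides in this cell line.

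The hairpin that ends histone mRNAs was looked for in the 67 members with an annotated stop codon, and all 67 held it, between 22 and 67 bases after the stop. It is 16 bases long, with 6 bases pairing on either side of a 4-base loop, and occurred in 10 forms. Windows of GRCh37 around it are shown for genes that recur below, in the sense of the mRNA, with the hairpin in capitals:
HIST1H1C: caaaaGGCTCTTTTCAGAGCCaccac
HIST1H2AG: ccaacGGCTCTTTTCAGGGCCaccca
HIST1H2BK: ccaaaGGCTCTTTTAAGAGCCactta
HIST1H2BM: ccaaaGGCTCTTTTCAGAGCCgtcca
HIST1H3B: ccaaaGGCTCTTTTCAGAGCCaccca
HIST1H4C: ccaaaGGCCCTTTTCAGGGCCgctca
HIST1H4I: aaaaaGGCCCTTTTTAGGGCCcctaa
HIST4H4: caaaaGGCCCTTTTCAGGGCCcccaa
The form printed for HIST1H1C was the most frequent, found in 39 genes of the H1, H2A, H2B and H3 types. The form with A in the loop, as in HIST1H2BK, was found in 9 genes. H4 genes had their own stem, as in HIST1H4C and HIST4H4, found in 9 genes, or the same stem with another loop, as in HIST1H4I, found in 4.

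Histone mRNA levels in these cells were uneven. Of the 89 genes, 54 passed the count filter and were tested, and the 35 others never exceeded 11 counts in any library, with 9 at 0 in all libraries. None of the tested members was annotated as a pseudogene, and 52 of them were protein coding. Of the 54, 53 had a mean of at least 1 CPM, 48 of at least 10 CPM and 34 of at least 100 CPM. The 10 members with the most reads held 46.0% and the top 20 held 72.2% of all histone reads. Scaled to transcript length, HIST1H1C (the linker histone H1.2) had the highest mean level, 1349 CPM per kb, followed by HIST1H3B at 1156, HIST1H4C at 1129 and HIST1H1E (H1.4) at 1084 CPM per kb. H2B genes took 28.6% of histone reads, H1 genes 20.2%, H2A genes 19.8%, H3 genes 16.9% and H4 genes 14.5%. The HIST1 cluster took 92.3%.

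Summed over all 89 genes, histone mRNA was slightly higher in both PHF8 groups. The sum was 11183, 11216 and 11154 CPM in sgScr A, B and C, 11350, 12439 and 11236 CPM in sgPHF8-1, and 12507, 12009 and 11598 CPM in sgPHF8-3. All 6 PHF8-guide libraries were above the 3 controls, but sgPHF8-1 A and C exceeded the highest control only slightly, and library B was higher by far. The mean was 11184 ± 30.9 CPM in sgScr and 11675 ± 664 CPM in sgPHF8-1 (SD, n = 3), a difference of 4.4% that was 1.0% without library B. It was 12038 ± 455 CPM in sgPHF8-3, a difference of 7.6% that was 5.5% without library A. No test was made of the sums. In bulk RNA, a difference in the number of cells in S phase and a difference in histone mRNA per cell cannot be told apart.

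**Figure D1:**
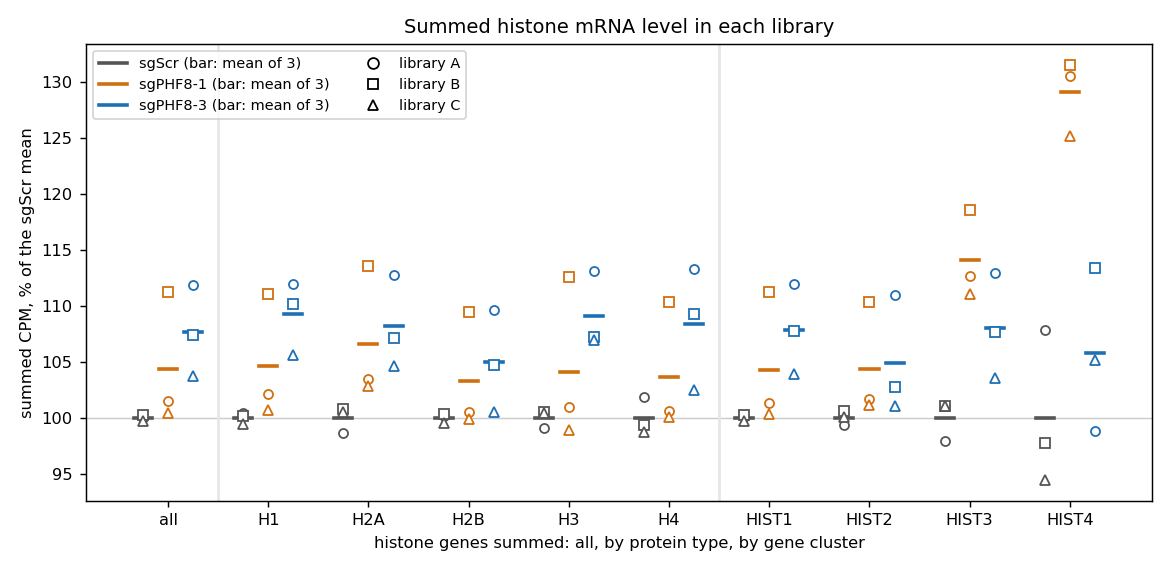
Summed CPM of the clustered histone genes in each library as a percentage of the sgScr mean (vertical axis), for all 89 genes, for each histone type and for each cluster (horizontal axis). Circles, squares and triangles are libraries A, B and C and bars are means of 3; library B of sgPHF8-1 lies above its 2 companions for all types, and sgPHF8-1 stands highest for the HIST4 gene.

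By type, the sgPHF8-3 sums were 9.2% higher for H1, 8.2% for H2A, 5.0% for H2B, 9.1% for H3 and 8.3% for H4. Without library A they were 7.9%, 5.9%, 2.6%, 7.1% and 5.9% higher, so H2B had the smallest difference either way. The sgPHF8-1 sums were 4.6% higher for H1, 6.6% for H2A, 3.3% for H2B, 4.1% for H3 and 3.6% for H4. Without library B the sgPHF8-1 differences were 1.4%, 3.1%, 0.2%, -0.1% and 0.3%, so H2A kept the largest of them. H1 mRNA measured 2251, 2246 and 2230 CPM in sgScr, 2289, 2491 and 2257 CPM in sgPHF8-1 and 2511, 2469 and 2368 CPM in sgPHF8-3. H2B mRNA measured 3247, 3253 and 3225 CPM in sgScr, 3257, 3547 and 3238 CPM in sgPHF8-1 and 3555, 3396 and 3258 CPM in sgPHF8-3. For H1 the sgPHF8-3 libraries were clear of the controls, whereas for H2B library C of sgPHF8-1 lay inside the control range and library C of sgPHF8-3 lay just above it.

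Under sgPHF8-3, 22 of the 54 tested histone genes were higher than in sgScr and 0 were lower (edgeR quasi-likelihood test, adjusted p under 0.05), where 9.48% of all 14614 tested genes were higher and 9.78% lower. DESeq2 and limma also called 0 lower, and 0 were lower at an unadjusted p under 0.05. The changes were small: the called members had log2 fold changes of 0.10 to 0.55 with a median of 0.14, against a median absolute change of 0.19 over all genes called. The median over the 54 was 0.10, against 0.00 over all genes tested, and 53 of the 54 values were above 0. In 29 of the 54 all 3 sgPHF8-3 libraries were above all 3 controls, which held for 18.6% of all tested genes. The count depended on the libraries included: it was 6 without sgPHF8-3 A and 9 without sgPHF8-3 B, where 6.63% and 6.08% of all tested genes were higher. It was 9 or 10 without any 1 control library, where 6.01% to 6.47% of all genes were higher. Without sgPHF8-1 B the count was 28 and without sgPHF8-3 C it was 26, where 11.6% and 8.05% of all genes were higher. With the calling rule of the study's methods applied to edgeR's p (unadjusted p under 0.05 and absolute log2 fold change over 0.25), 3 members were higher under sgPHF8-3, where 3.30% of all tested genes were, and 5 under sgPHF8-1, where 5.60% were.

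Linker histone genes were the type in which every tested member rose under sgPHF8-3, 4 of 4, beside 9.48% of all tested genes. Without sgPHF8-3 A, 2 of 4 were called higher, beside 6.63% of all tested genes. HIST1H1C measured 962, 942 and 950 CPM in sgScr and 1048, 1024 and 1007 CPM in sgPHF8-3, a log2 fold change of 0.11 ± 0.03 (SE; edgeR adjusted p = 0.0146). HIST1H1E rose by 0.14 ± 0.03 (edgeR adjusted p = 0.00653) and HIST1H1B (H1.5) by 0.14 ± 0.04 (edgeR adjusted p = 0.00812). HIST1H1D (H1.3) measured 147, 143 and 141 CPM in sgScr and 163, 166 and 157 CPM in sgPHF8-3 and rose by 0.18 ± 0.04 (edgeR adjusted p = 0.00202). In all 4 genes the sgPHF8-3 libraries were above every control. Under sgPHF8-1 the same 4 genes had log2 fold changes of 0.04 to 0.08 and none passed the test. The difference between the guides passed it for 0 of the 4. HIST1H1D was called under all 18 alternatives that kept the threshold on the adjusted p, and HIST1H1E and HIST1H1B under 17 each, the first losing its call without sgPHF8-3 B and the second without sgPHF8-3 A. HIST1H1C was called under 14, and lost its call without sgPHF8-3 A, sgPHF8-3 B, sgScr B or sgScr C.

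Among the core histone genes under sgPHF8-3, 6 of 14 H2A, 4 of 15 H2B, 4 of 10 H3 and 4 of 11 H4 genes rose. Without sgPHF8-3 A the counts were 2, 0, 1 and 1, and HIST1H2BK, HIST1H2BD, HIST1H3H and HIST1H4H, described next, each lost their call. Of all tested genes 9.48% were higher with all libraries and 6.63% without sgPHF8-3 A, so the H2B, H3 and H4 counts without that library were at or near the background. HIST1H3B, the H3 gene with the most reads, measured 555, 557 and 560 CPM in sgScr and 654, 621 and 628 CPM in sgPHF8-3, and the groups were well apart. Its log2 fold change was 0.19 ± 0.04 (edgeR adjusted p = 0.000456). HIST1H3H rose by 0.12 ± 0.04 (edgeR adjusted p = 0.0286), and HIST1H3C, with 0.09 ± 0.04, did not pass (edgeR adjusted p = 0.0854). Of the H2B genes with the most reads, HIST1H2BK rose by 0.11 ± 0.03 and HIST1H2BD by 0.10 ± 0.03 (edgeR adjusted p = 0.0242 and 0.03), and HIST1H2BJ had 0.05 ± 0.04 (edgeR adjusted p = 0.435). Among H4 genes, HIST1H4H rose by 0.12 ± 0.04 (edgeR adjusted p = 0.0248) and HIST1H4B had 0.06 ± 0.04 (edgeR adjusted p = 0.34). HIST1H2AI rose by 0.14 ± 0.03 (edgeR adjusted p = 0.0057), but it shares 63.5% of its 50-base windows with HIST1H2AJ, so the division of reads between them is uncertain. HIST1H3B, HIST1H2AI, HIST1H4C, HIST1H2AL and HIST1H1D were the 5 members called under all 18 alternatives.

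The largest fold changes under sgPHF8-3 belonged to members with few reads. HIST2H3C measured 2.10, 1.57 and 2.10 CPM in sgScr and 2.75, 2.38 and 3.37 CPM in sgPHF8-3, a log2 fold change of 0.55 ± 0.19 (edgeR adjusted p = 0.0391). HIST1H4J measured 8.31, 7.63 and 10.4 CPM in sgScr and 11.6, 11.3 and 9.94 CPM in sgPHF8-3, a log2 fold change of 0.32 ± 0.11 (edgeR adjusted p = 0.0324), and library C of sgPHF8-3 fell among the controls. Both are near-identical to other members: 99.2% of the 50-base windows of HIST2H3C recur in other HIST2 H3 genes and 92.1% of those of HIST1H4J in HIST1H4K. How the deposited counts divided such reads was not tested. Each of the 2 genes was called under 12 of the 18 alternatives.

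**Figure D2:**
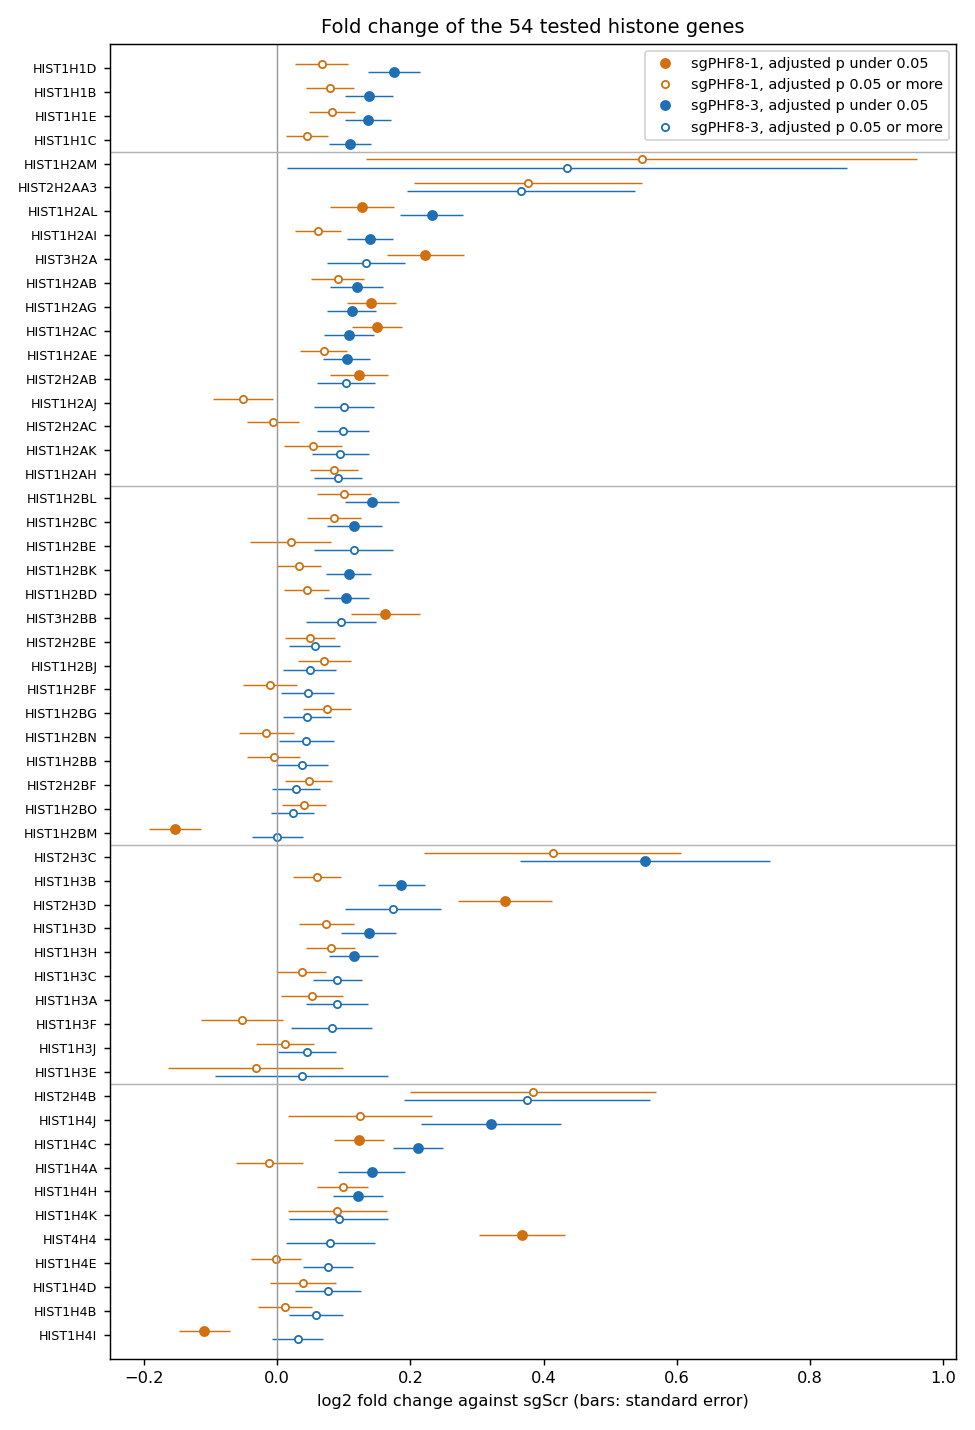
Log2 fold change against sgScr of the 54 tested histone genes with its standard error (horizontal axis), under sgPHF8-1 (orange) and sgPHF8-3 (blue), grouped from top to bottom as H1, H2A, H2B, H3 and H4. Filled points passed the test; 22 blue points are filled and all are above 0, whereas 9 orange points are filled above 0 and 2 below.

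Under sgPHF8-1, 9 of the 54 histone genes were higher and 2 were lower, where 15.2% of all tested genes were higher and 15.7% lower. The share of members called higher, 16.7%, was thus near that of all genes, and the share called lower, 3.70%, was below it. The median over the 54 was 0.07, against 0.00 over all genes, and 43 of the 54 values were above 0. Without library B the median was 0.02, 36 values were above 0, and 6 genes were higher and 2 lower, beside 13.4% and 14% of all tested genes. Without library C, 19 of the 54 were higher, beside 14.1% of all tested genes, so the nearness of the members' share to that of all genes held with all libraries and without library B but not without library C. In 16 of the 54 all 3 sgPHF8-1 libraries were above the controls, against 21.3% of all tested genes.

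Of the 11 tested members of HIST2, HIST3 and HIST4, 5 rose under sgPHF8-1. Of the 43 tested HIST1 genes 4 rose and 2 fell, beside 15.2% of all tested genes higher and 15.7% lower. The share of HIST1 genes that rose was thus below that of all genes, and the difference between clusters was not tested. Without sgPHF8-1 B, 4 of 11 outside HIST1 and 2 of 43 in it rose, beside 13.4% of all tested genes. HIST2H2AB and HIST3H2BB, 2 of the 5, lost their calls with DESeq2 and without sgScr A, sgScr C or sgPHF8-1 A. HIST4H4, the single gene of its cluster and an H4 gene, measured 22.2, 20.1 and 19.4 CPM in sgScr, 26.9, 27.1 and 25.8 CPM in sgPHF8-1 and 20.3, 23.3 and 21.6 CPM in sgPHF8-3. All 3 sgPHF8-1 libraries were above the other 6, and the log2 fold change was 0.37 ± 0.06 (edgeR adjusted p = 7.76e-05). HIST2H3D rose by 0.34 ± 0.07 (edgeR adjusted p = 0.000496), from 26.9 ± 0.171 CPM in sgScr to 34.1 ± 3.61 CPM in sgPHF8-1 (SD, n = 3), and 78.3% of its windows are shared with other HIST2 H3 genes. HIST3H2A rose by 0.22 ± 0.06 and its divergent neighbour HIST3H2BB by 0.16 ± 0.05 (edgeR adjusted p = 0.00445 and 0.0178). HIST2H2AB, the remaining one of the 5, rose by 0.12 ± 0.04 (edgeR adjusted p = 0.0329).

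Under sgPHF8-3, 21 of 43 HIST1 genes and 1 of 11 others were called higher, beside 9.48% of all tested genes. Without sgPHF8-3 A these counts were 6 and 0, beside 6.63% of all tested genes. The median was 0.10 in both sets under sgPHF8-3, and 0.06 in HIST1 and 0.22 outside it under sgPHF8-1. The difference between clusters was not tested here either. The summed level in sgScr was 786 ± 4.64 CPM for HIST2, 59.7 ± 1.06 CPM for HIST3 and 20.6 ± 1.44 CPM for HIST4 (SD, n = 3).

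A single H2B gene and a single H4 gene fell under sgPHF8-1. HIST1H2BM measured 90.0, 88.6 and 86.7 CPM in sgScr and 78.9, 82.9 and 76.7 CPM in sgPHF8-1, all below the controls, and its log2 fold change was -0.15 ± 0.04 (edgeR adjusted p = 0.00333). HIST1H4I measured 149, 156 and 154 CPM in sgScr and 137, 152 and 136 CPM in sgPHF8-1, a log2 fold change of -0.11 ± 0.04 (edgeR adjusted p = 0.0311), with library B inside the control range. HIST1H4I lost its call with DESeq2 and without sgScr B, sgScr C, sgPHF8-1 A or sgPHF8-1 C, whereas HIST1H2BM kept it under all 18 alternatives, as did HIST4H4, HIST2H3D, HIST3H2A, HIST1H2AC and HIST1H2AG.

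A total of 4 members passed the test in the same direction under both guides: HIST1H2AL, HIST1H2AC, HIST1H2AG and HIST1H4C, of which 3 encode H2A. They are 7.41% of the tested members, and 6.42% of all tested genes were higher under both guides. The comparisons share the sgScr libraries, and nothing particular to the histone genes is read from this count. HIST1H2AC measured 322, 331 and 330 CPM in sgScr, 354, 389 and 347 CPM in sgPHF8-1 and 368, 355 and 336 CPM in sgPHF8-3. Its log2 fold changes were 0.15 ± 0.04 and 0.11 ± 0.04 (edgeR adjusted p = 0.00317 and 0.0451). HIST1H2AG measured 405, 410 and 413 CPM in sgScr, 433, 486 and 436 CPM in sgPHF8-1 and 460, 431 and 436 CPM in sgPHF8-3, with log2 fold changes of 0.14 ± 0.04 and 0.11 ± 0.04 (edgeR adjusted p = 0.00431 and 0.033). In both genes all 6 PHF8-guide libraries were above all controls. Under sgPHF8-3, HIST1H2AC was called under 10 of the 18 alternatives and lost its call with DESeq2, with limma and without any 1 control library, sgPHF8-3 A or sgPHF8-3 B, and without both sgPHF8-1 B and sgPHF8-3 A. HIST1H2AG was called under 14 and lost its call without any 1 control library or sgPHF8-3 A.

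HIST1H4C, the H4 gene with the most reads, measured 427, 420 and 420 CPM in sgScr, 443, 493 and 445 CPM in sgPHF8-1 and 511, 495 and 462 CPM in sgPHF8-3. Again no PHF8-guide library reached down to the controls, and the log2 fold changes were 0.12 ± 0.04 and 0.21 ± 0.04 (edgeR adjusted p = 0.0138 and 0.000191). HIST1H2AL measured 56.4, 55.6 and 61.7 CPM in sgScr, 60.6, 68.8 and 60.5 CPM in sgPHF8-1 and 69.0, 68.3 and 66.6 CPM in sgPHF8-3. Libraries A and C of sgPHF8-1 overlapped the highest control, and the log2 fold changes were 0.13 ± 0.05 and 0.23 ± 0.05 (edgeR adjusted p = 0.0459 and 0.000966). Under sgPHF8-1, HIST1H4C lost its call without sgPHF8-1 B, sgScr B or sgScr C and without both sgPHF8-1 B and sgPHF8-3 A. HIST1H2AL was called under 6 of the 18 alternatives and had a log2 fold change of 0.07 without sgPHF8-1 B (edgeR adjusted p = 0.316).

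With the average of both guides set against sgScr, 24 of the 54 were higher and 0 lower, where 14.7% of all tested genes were higher and 14.9% lower. DESeq2 called 19 higher and 0 lower and limma 24 and 0, and 1 member was lower at an unadjusted p under 0.05. Without sgPHF8-1 B and sgPHF8-3 A together, an alternative chosen after seeing the data, 14 were higher and 2 lower, 7 were higher and 3 lower under sgPHF8-1 alone, and 16 were higher and 0 lower under sgPHF8-3 alone. Of all tested genes 13.5%, 13.6% and 9.34% were then higher and 15.1%, 15.1% and 10.3% lower, so the sgPHF8-1 count of higher members was near the background. The medians were then 0.01 under sgPHF8-1 and 0.07 under sgPHF8-3.

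**Figure D3:**
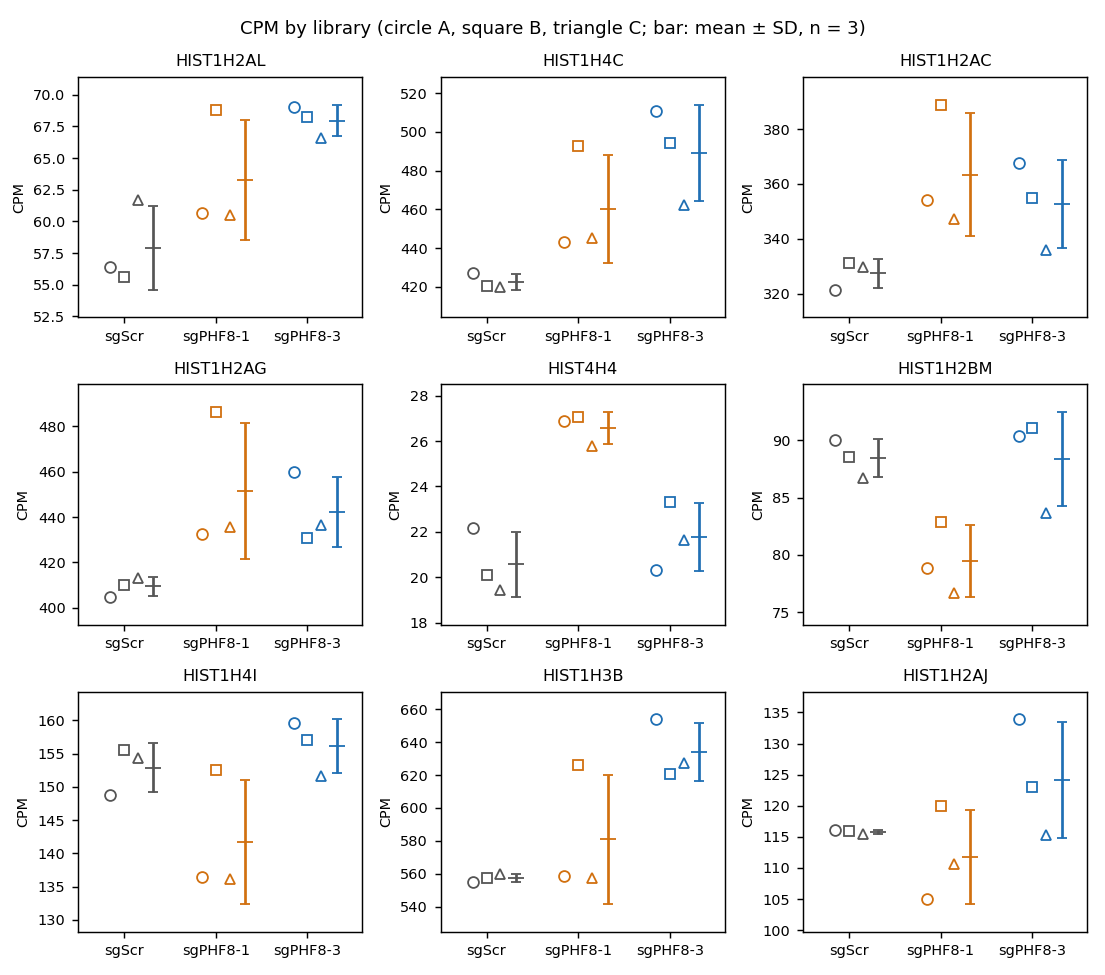
CPM (vertical axes, not starting at 0) of 9 histone genes in each library of the 3 groups, with circles, squares and triangles for libraries A, B and C and the mean ± SD beside them. HIST1H2AL, HIST1H4C, HIST1H2AC and HIST1H2AG are the genes called under both guides, and the other 5 differed between the guides; HIST4H4 is high in sgPHF8-1 and HIST1H2BM is low in it.

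Compared directly, sgPHF8-3 and sgPHF8-1 differed in 5 of the 54 histone genes, 4 higher and 1 lower under sgPHF8-3, where 5.83% of all tested genes were higher and 4.74% lower. HIST4H4 was lower under sgPHF8-3 by 0.29 ± 0.07 on the log2 scale (edgeR adjusted p = 0.00439). HIST1H2BM was higher by 0.15 ± 0.04 (edgeR adjusted p = 0.0115), HIST1H4I by 0.14 ± 0.04 (edgeR adjusted p = 0.0183) and HIST1H3B by 0.13 ± 0.04 (edgeR adjusted p = 0.0208). HIST1H2AJ was higher by 0.15 ± 0.05 (edgeR adjusted p = 0.0304), from 105, 120 and 111 CPM in sgPHF8-1 to 134, 123 and 115 CPM in sgPHF8-3. The guide groups of HIST1H2AJ, HIST1H3B and HIST1H4I overlapped, and those of HIST4H4 and HIST1H2BM did not. In HIST1H3B and HIST1H4I the overlap was of library sgPHF8-1 B, at 626 and 152.5 CPM, with the lowest sgPHF8-3 library, at 621 and 152 CPM. The number called higher was 20 without sgPHF8-1 B, 6 without sgPHF8-3 C, 1 without sgPHF8-1 A, 0 without sgPHF8-1 C, and 1 without either sgPHF8-3 A or sgPHF8-3 B. Of all tested genes 5.48%, 3.86%, 3.86%, 4.87%, 5.38% and 3.63% were higher in these settings, in the same order.

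Position and promoter were then compared with these values. HIST1H2AJ and HIST1H2BM, which both differed between the guides, are neighbours read in opposite directions from starts 245 bases apart. Of 11 such H2A and H2B pairs, 9 had both genes tested, with starts 194 to 248 bases apart. Both genes were called between the guides in 1 pair, and in the 8 others neither was. Under sgPHF8-1 neither gene of 5 pairs, 1 gene of 3 pairs and both genes of 1 pair, HIST3H2A and HIST3H2BB, were called. Under sgPHF8-3 neither gene of 5, 1 gene of 2 and both genes of 2 pairs were called, the last being HIST1H2AC with HIST1H2BC and HIST1H2AI with HIST1H2BL. Under either guide most pairs with no difference in call had neither gene called, and differences between pair partners were not tested.

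The window from 250 bases before to 50 after the start of HIST1H2BM, from RefSeq on GRCh38.p14, is shown because it holds the starts of both genes of the pair that differed between the guides (chr6:27814772-27815071, plus strand, with the motifs searched in capitals):
HIST1H2BM promoter: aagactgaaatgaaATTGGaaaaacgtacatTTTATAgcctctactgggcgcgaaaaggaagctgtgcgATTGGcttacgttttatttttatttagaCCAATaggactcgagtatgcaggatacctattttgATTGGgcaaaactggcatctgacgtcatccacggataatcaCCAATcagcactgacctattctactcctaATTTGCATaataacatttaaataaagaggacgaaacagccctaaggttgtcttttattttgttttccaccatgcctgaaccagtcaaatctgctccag
The motifs, searched on both strands, were the octamer ATTTGCAT, bound by POU-domain factors such as OCT1, the CCAAT box and TATAAA. The octamer was found in 26 of the 65 members in the promoter table, against 1.77% of 35116 RefSeq promoters. It was held by 11 of 16 H2A and 14 of 18 H2B genes, 1 of 12 H3 genes, 0 of 13 H4 genes and 0 of 6 H1 genes. The table gives that H3 gene, HIST1H3D, the same window as HIST1H2AD, so their octamer is counted for both. CCAAT was found in 55 of the 65, against 34.6% of all promoters, and in 3 of 13 H4 genes. TATAAA was found in 43 of the 65, against 11.5%.

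Members with and without the octamer gave similar counts and medians, and the difference was not tested. Of the tested members with the octamer, 4 of 21 were higher and 1 lower under sgPHF8-1 and 8 of 21 higher under sgPHF8-3, with medians of 0.07 and 0.10. Of those without it, 4 of 29 were higher and 1 lower under sgPHF8-1 and 12 of 29 higher under sgPHF8-3, with medians of 0.07 and 0.11. The sgPHF8-1 counts were near the 15.2% of all tested genes that were higher, and under sgPHF8-3 that share was 9.48%. Members with an annotated transcript of more than 1 exon, which could be processed like other mRNAs, had medians of 0.08 and 0.10 (4 and 4 of 14 higher, 0 lower), and those with 1-exon transcripts alone had 0.06 and 0.11 (5 and 18 of 38 higher, 2 and 0 lower). Near-identical members, with most of their 50-base windows found in another member, had larger medians, 0.23 and 0.25 over 8 genes, against 0.06 and 0.10 over the 44 others with an annotated sequence. Of the 8, 1 was higher under sgPHF8-1 and 3 under sgPHF8-3, and 0 were lower. Of the 44, 8 and 19 were higher and 2 and 0 lower. HIST2H3C and HIST1H4J, which had few reads, were among the 8, and the difference was not tested.

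The factors that make and process histone mRNA were examined next, 30 of 31 of which could be tested. Under sgPHF8-1, 5 were higher and 4 lower, and under sgPHF8-3, 4 were higher and 0 lower, with medians of 0.05 under either guide. Over all tested genes 15.2% were higher and 15.7% lower under sgPHF8-1 and 9.48% and 9.78% under sgPHF8-3, and the counts of this and the following lists are to be read against these shares. Without sgPHF8-1 B the sgPHF8-1 counts were 4 and 3, and without sgPHF8-3 A the sgPHF8-3 counts were 3 and 0. SLBP, the hairpin-binding protein, had log2 fold changes of 0.07 ± 0.04 under sgPHF8-1 and 0.09 ± 0.04 under sgPHF8-3 (edgeR adjusted p = 0.139 and 0.106). NPAT, the activator of histone gene transcription in S phase, measured 44.5 ± 1.79 CPM in sgScr, 44.8 ± 1.13 CPM in sgPHF8-1 and 44.4 ± 0.294 CPM in sgPHF8-3 (SD, n = 3), and did not pass the test (edgeR adjusted p = 0.889 and 0.989). CASP8AP2 (FLASH), which joins the 3' end processing complex, fell from 71.3 ± 0.973 to 59.8 ± 1.29 CPM under sgPHF8-1, a log2 fold change of -0.25 ± 0.04 (edgeR adjusted p = 2.91e-05). Under sgPHF8-3 it had -0.06 ± 0.04 (edgeR adjusted p = 0.335).

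Of the U7 snRNP proteins, LSM11 rose by 0.20 ± 0.06 under sgPHF8-3 (edgeR adjusted p = 0.0268) and had 0.12 ± 0.06 under sgPHF8-1, and LSM10 had 0.18 ± 0.07 under sgPHF8-1 and -0.07 ± 0.07 under sgPHF8-3 without passing (edgeR adjusted p = 0.0628 and 0.544). ZNF473, another processing factor, and ERI1, an exonuclease that acts on the hairpin end, rose under sgPHF8-3 by 0.16 ± 0.04 and 0.15 ± 0.04 (edgeR adjusted p = 0.0123 and 0.0195). HINFP, a transcription factor of H4 genes, and UPF1, a helicase of histone mRNA decay, passed under neither guide. CSTF2, a cleavage factor subunit, was the one listed factor higher under both guides, by 0.20 under sgPHF8-1 and 0.15 under sgPHF8-3. The U7 snRNA gene itself, RNU7-1, had 0 counts in all 9 libraries.

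Replication-independent histone genes lie outside the clusters, and most of their mRNAs are polyadenylated, although H2AFX also makes a hairpin-ended mRNA. Of 10 tested, 3 were higher and 1 lower under sgPHF8-1 (3 and 2 without library B) and 4 were higher and 0 lower under sgPHF8-3 (2 and 0 without library A). H2AFZ (H2A.Z) rose by 0.28 and 0.22 under sgPHF8-1 and sgPHF8-3, H2AFX (H2A.X) by 0.20 and 0.13 and CENPA, the centromeric H3, by 0.14 and 0.21. Of 22 histone chaperones, 2 were higher and 5 lower under sgPHF8-1 (3 and 6 without library B) and 2 were higher and 2 lower under sgPHF8-3 (3 and 2 without library A). ATRX had log2 fold changes of -0.27 and -0.18 and RBBP4 of -0.18 and -0.11, and SSRP1 rose by 0.09 and 0.10.

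DNA replication genes, whose mRNAs also peak around S phase, gave 4 higher and 6 lower of 30 under sgPHF8-1 (4 and 5 without library B) and 8 higher and 0 lower under sgPHF8-3 (6 and 0 without library A), with medians of 0.00 and 0.06. CDC25A, GINS4, GINS3 and RRM2 rose under both guides, by 0.25, 0.23, 0.13 and 0.13 under sgPHF8-1 and by 0.27, 0.18, 0.19 and 0.12 under sgPHF8-3. MKI67, a marker of cycling cells on the same list, measured 277 CPM in sgPHF8-1 and 354 CPM in sgPHF8-3 against 369 CPM in sgScr, and had log2 fold changes of -0.41 ± 0.06 under sgPHF8-1 and -0.06 ± 0.06 under sgPHF8-3 (edgeR adjusted p = 1.02e-05 and 0.556). The study reported no effect of PHF8 knockout on the proliferation of this cell line, and no significant change of E2F1 in its RNA sequencing. The part of the cell cycle in the histone differences was not tested.

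Other RNAs without a poly(A) tail, such as RN7SL1 and RN7SL2 of the signal recognition particle, were set beside the histone mRNAs. Of 20 tested, 7 were higher and 2 lower under sgPHF8-1 (6 and 1 without library B), with a median of 0.14. Under sgPHF8-3, 1 was higher and 4 lower (0 and 3 without library A), with a median of -0.03. TERC rose under both guides, by 0.24 and 0.14, and SCARNA10 had -0.14 and -0.11. RN7SL1, at 18200 CPM in sgScr, 18130 in sgPHF8-1 and 15520 in sgPHF8-3, had the most reads on that list, and RN7SL1 and RN7SL2 had log2 fold changes of -0.23 and -0.19 under sgPHF8-3 and of -0.01 and 0.13 under sgPHF8-1.

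**Figure D4:**
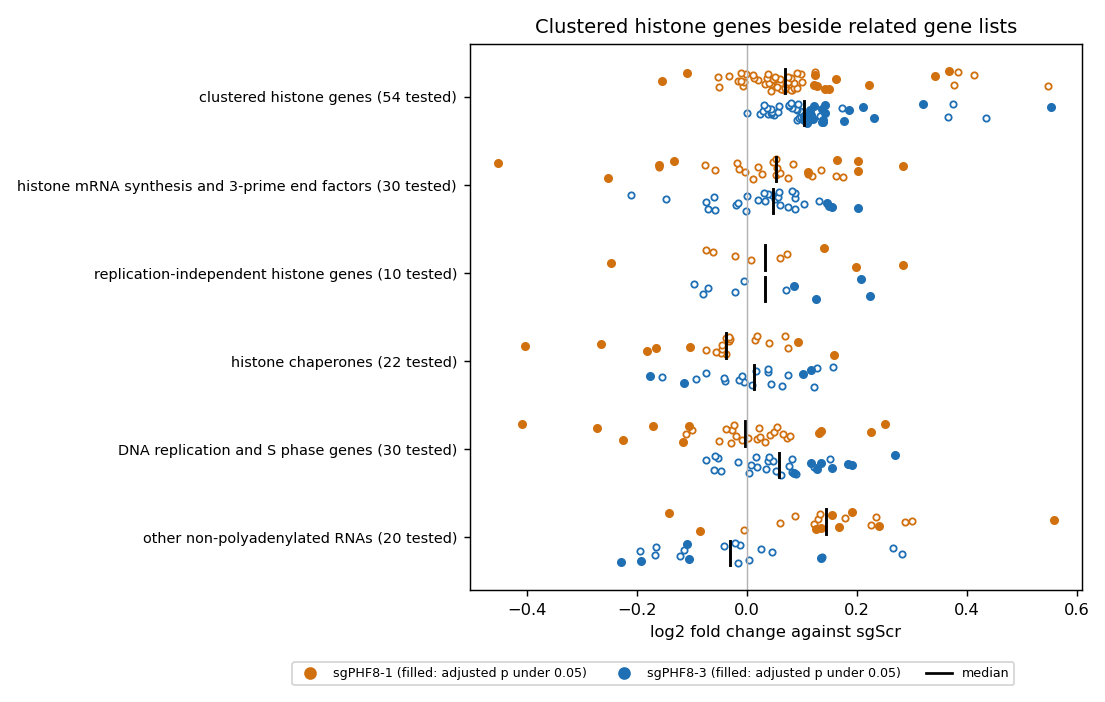
Log2 fold change against sgScr (horizontal axis) of each tested gene of the clustered histone genes and of 5 related lists (vertical axis), under sgPHF8-1 (orange) and sgPHF8-3 (blue). Filled points passed the test and black bars are medians; most histone genes sit above 0 under both guides, with medians of 0.07 and 0.10, while the other non-polyadenylated RNAs have medians of 0.14 and -0.03.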

How the data were processed

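RNA of SKMEL-147 cells (3 libraries for each of sgScr, sgPHF8-1 and sgPHF8-3) was depleted of rRNA and made into libraries with a ScriptSeq kit. Per the study's methods and the submitters' notes, the authors aligned reads to hg19 with STAR and counted them per gene with HTSeq. The annotation release and the strand setting were not given in the sources used here, so reads of overlapping antisense genes may not be told apart. The authors deposited raw counts under Ensembl identifiers, and a table of normalised counts under symbols, a signal equal to the raw count divided by a DESeq2 size factor per library. Multiplied by that factor, 100% of the deposited normalised values were whole reads to within 5.3e-05, and the 9 counts of all 57736 rows were the same in both tables. The recovered counts, which carry the symbols, were therefore tested, and 70 member rows also matched 1 Ensembl ID. The number of columns left unused was 0.

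Genes were filtered with filterByExpr (minimum count 10) and fitted over all 9 libraries with edgeR 4.0.16 (TMM, quasi-likelihood, R 4.3.3), with Benjamini-Hochberg adjustment over all 14614 tested genes and a threshold of 0.05. Of the 54 members tested, 53 passed the filter in each of the 3 groups taken alone. Each guide was compared with sgScr, the guides with each other, and their average with sgScr. Standard errors of fold changes are those of the fitted contrast. Scripts were tested on simulated data. Alternatives were DESeq2 1.42.0, limma 3.58.1 on log2(deposited normalised count + 1), other scalings and filters, the compared groups alone, the replicate letter as a block, the calling rule of the study's methods, and leaving out each library. Totals of 17366120 to 19838142 counts per library set the precision. Hairpins were searched in the 150 bases after the stop codon of the GENCODE annotation lifted to GRCh37, as 16 bases that start with GG, end with CC and pair over 6 bases on either side (G-T pairs allowed), and promoter motifs were searched in RefSeq promoters of 300 bases.

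Named genes were PHF8, the 3 members of each type with the most reads, members called under both guides (at most 12), between guides (at most 5) or under 1 guide alone (at most 4 per guide, by fold change), 9 factors of histone mRNA metabolism, and at most 6 genes per list called under both guides. HIST2H2AB, HIST1H2BC, HIST1H2BL, MKI67, RNU7-1, RN7SL1, RN7SL2 and the marker genes fall outside this rule and were chosen after their values were seen. The members and lists were chosen with earlier results of these data known. Marker lists were checked. Of 3 tested melanocyte genes 1 was lower under either guide. Of 6 dedifferentiated melanoma genes 2 were higher and 2 lower under sgPHF8-1 and 0 higher and 2 lower under sgPHF8-3. Of 2 tested fibroblast genes 0 were called under sgPHF8-1 and 1 was lower under sgPHF8-3. The 1 tested keratinocyte gene was lower under both guides, and 0 of 4 leukocyte genes could be tested.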

Additional observations from a re-analysis of the deposited data

Results flagged for a closer look

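The effects on 5 histone genes differed between the guides when sgPHF8-3 was tested against sgPHF8-1 with edgeR over all tested genes. They are 9.26% of the tested members, against 10.6% of all tested genes called in this comparison. Each is given as a log2 difference, sgPHF8-3 minus sgPHF8-1. HIST4H4 differed by -0.29, being high in all 3 sgPHF8-1 libraries. HIST1H2BM differed by 0.15, being low in all 3 sgPHF8-1 libraries. HIST1H4I differed by 0.14 and HIST1H3B by 0.13. HIST1H2AJ differed by 0.15. The libraries of HIST1H4I, HIST1H3B and HIST1H2AJ overlapped between the guides. Of these, HIST4H4 was called under all 18 alternatives that kept the threshold on the adjusted p, HIST1H2BM under 16, HIST1H3B and HIST1H4I under 14 and HIST1H2AJ under 12. With 3 libraries in each group, single libraries far from their group were not tested for.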

How the results depend on the processing

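Of 150 recomputed counts of called histone genes, 119 stayed within 1.5 times the reported count, or at 0 where that count was 0. Because counts that stayed at 0 are included, the 119 do not measure how stable the other counts are. Under the calling rule of the study's methods, unadjusted p under 0.05 with an absolute log2 fold change over 0.25, the higher counts were 5 (sgPHF8-1), 3 (sgPHF8-3), 0 (sgPHF8-3 against sgPHF8-1) and 4 (both guides), and the lower count under sgPHF8-1 was 0. With DESeq2 the lower count under sgPHF8-1 was 1, and with the compared groups alone the higher count between guides was 2. Without sgPHF8-1 B and sgPHF8-3 A, an alternative chosen after seeing the data, the higher counts were 13 between guides and 14 for both guides, and the lower count for both guides was 2. Leaving out each library in turn gave 6 to 19 higher and 1 to 2 lower under sgPHF8-1, 6 to 28 higher and 0 lower under sgPHF8-3, 0 to 20 higher and 1 to 2 lower between guides, and 12 to 29 higher and 0 to 1 lower for both guides, while 11.7% to 15.4%, 6.01% to 11.6%, 3.63% to 5.48% and 10.2% to 14.7% of all tested genes were higher. The cause was not tested.

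Sign changes were seen only among named fold changes that had not passed the test. Without sgPHF8-1 B and sgPHF8-3 A, the log2 values under sgPHF8-1 were -9e-04 for HIST1H1C, -0.0063 for HIST1H2BK, -0.0014 for HIST1H3B, -0.026 for HIST1H3C and -0.0344 for HIST1H4B, and under sgPHF8-3 they were -1e-04 for HIST1H4B and -0.0098 for HINFP. With upper-quartile scaling, HIST1H2BM and NPAT had 0.0054 and 0.0043 under sgPHF8-3. Leaving out libraries in turn gave, under sgPHF8-1, -0.0023 to 0.0577 for HIST1H2BK, -0.0219 to 0.0709 for HIST1H3C, -0.0303 to 0.0367 for HIST1H4B and -0.0152 to 0.0421 for NPAT. Under sgPHF8-3 it gave -0.0222 to 0.0376 for HIST1H2BM, -0.0275 to 0.0298 for NPAT and -0.0076 to 0.1203 for HINFP. The other 1898 named values kept their direction, of which 148 fell short of the threshold and 30 newly passed it.

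The replicate letters are not stated to pair libraries, and deviations of the 9 same-letter pairs correlated by -0.083 to 0.053. Over all pairs of libraries from different groups, the highest correlation was 0.143, between sgPHF8-1 B and sgPHF8-3 A. These are the libraries left out together above, and the source of their shared deviation was not tested. With the letter as a replicate block, the histone counts were 10 higher and 2 lower under sgPHF8-1, 22 and 0 under sgPHF8-3, 5 and 1 between guides, and 25 and 0 for both guides. With 3 libraries a group and fold changes of about 0.1, many single calls depend on 1 library, and members with few reads or near-identical copies are the least certain.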
